A study of Mus musculus with 4 samples.

Results

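Mitosis and spindle genes were examined in mouse 4T1-T breast cancer cells silenced for Asns, the gene of the enzyme that makes asparagine. They comprised 35 named genes of mitotic entry, the spindle, the kinetochore, the checkpoint, anaphase and cytokinesis, listed by gene symbol. The rule used no measured value, but the list was drawn up with earlier results of these data known. All 35 were found among the 23481 genes of the count table, and all 35 passed the filter on low counts, by which 12843 genes were tested. The 2 groups were cells grown in DMEM without asparagine (2 libraries, A and B) and cells grown with it in the same medium (2 libraries, A and B). Both groups carried the Asns silencing, and no unsilenced cells were analysed here, so the comparison concerns asparagine in the medium and not the silencing. 4T1-T is a derivative of the 4T1 mouse mammary carcinoma line, and the labels do not state whether A and B were separate cultures; the p-values therefore reflect only how far these libraries differ, which may be technical.

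Cells enter mitosis when the kinase CDK1, bound to a cyclin A or cyclin B partner, is freed of inhibitory phosphate by CDC25 phosphatases. Polo and Aurora kinases then mature the centrosomes and correct faulty attachments, kinesin motors shape the spindle, and the NDC80 complex joins kinetochores to microtubules. The checkpoint proteins hold back the anaphase-promoting complex until every chromosome is attached, after which CDC20 switches that ubiquitin ligase on, separase cuts cohesin and the cell divides. Transcripts of these genes peak together late in the cell cycle, and their summed level in a culture is widely used as a readout of how many cells are dividing. In bulk RNA, fewer cells in mitosis and less transcript per mitotic cell cannot be told apart.

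Reads assigned to genes ranged from 17977552 to 22581543 in the libraries without asparagine and from 23867011 to 30260582 in those with it. Library A without asparagine stood apart: reads lying in no annotated feature made up 56.6% of it, 47.4% of library B of the same group, and 49.3% and 46.3% of the libraries with asparagine. Its Spearman correlation across tested genes with library B of its own group was 0.991, whereas the libraries with asparagine correlated at 0.998. The ribosomal RNA precursor gene Rn45s held 3.53% (A) and 1.66% (B) of gene reads without asparagine, against 0.884% (A) and 1.18% (B) with it. Both libraries without asparagine thus lay above both with it. Asns was read at 75 and 89.2 CPM (gene counts scaled to a common library size by TMM) without asparagine and at 103 and 101 CPM with it. Epithelial markers were present (all 9 listed genes, summing to between 1008 and 1038 CPM without and between 840 and 935 CPM with asparagine). Of 12 leukocyte markers, 11 averaged under 1 CPM and Cd3e was at 0. All 6 endothelial and all 5 adipocyte markers averaged under 1 CPM, and Adipoq was at 0. Among 10 fibroblast and muscle markers, 8 averaged under 1 CPM and Pdgfra was the most abundant, at 18.1 and 22.8 CPM without, against 42.8 and 40.7 CPM with asparagine.

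No mitosis or spindle gene was called higher or lower in cells without asparagine. None of the 35 genes passed the edgeR quasi-likelihood test (adjusted p threshold 0.05 over all tested genes), in a comparison that called 1.85% of all tested genes and 1.87% of the 4919 tested genes at least as abundant as the least abundant mitotic gene. DESeq2 and limma-voom also called 0 of the 35. At an unadjusted threshold of 0.05, 3 genes passed, or 8.57%, against 18.1% of all tested genes and 19% of those at least as abundant. These were Espl1 and Birc5 with more transcript and Ccnb2 with less in the cells without asparagine. The fold change ranged from -0.39 for Ccnb2 to 0.31 for Espl1 on the log2 scale, and the smallest adjusted p was 0.143.

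The counts behind these genes were high, between 723 and 94169 reads per gene and library. For 34 of the 35 genes, the 95% interval of the fold change lay wholly within a 1.5-fold difference in either direction, as it did for 52% of all tested genes and 77.3% of those at least as abundant. Ccnb2 was the exception, with a lower bound at 0.643-fold. These intervals take a common spread for both groups, although libraries A and B differed more without asparagine. The chi-square per degree of freedom between their counts was 42.7 without and 4.99 with asparagine. Intervals were not recomputed with a library left out, so the 1.5-fold bound holds only under that common spread. Of the 35, 12 fold changes were above 0 and 23 below, with a median of -0.04, beside medians of 0.01 over all tested genes and -0.04 over those at least as abundant. With upper quartile scaling the median of the 35 was 0.01 and 28 genes kept their sign. The sign of the median therefore depends on the scaling. That scaling also raised the median of all tested genes, to 0.06, and the median of the 35 stayed below it. The median size of a fold change, regardless of sign, was 0.09, against 0.19 over all tested genes and 0.14 over those at least as abundant.

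**Figure D1:**
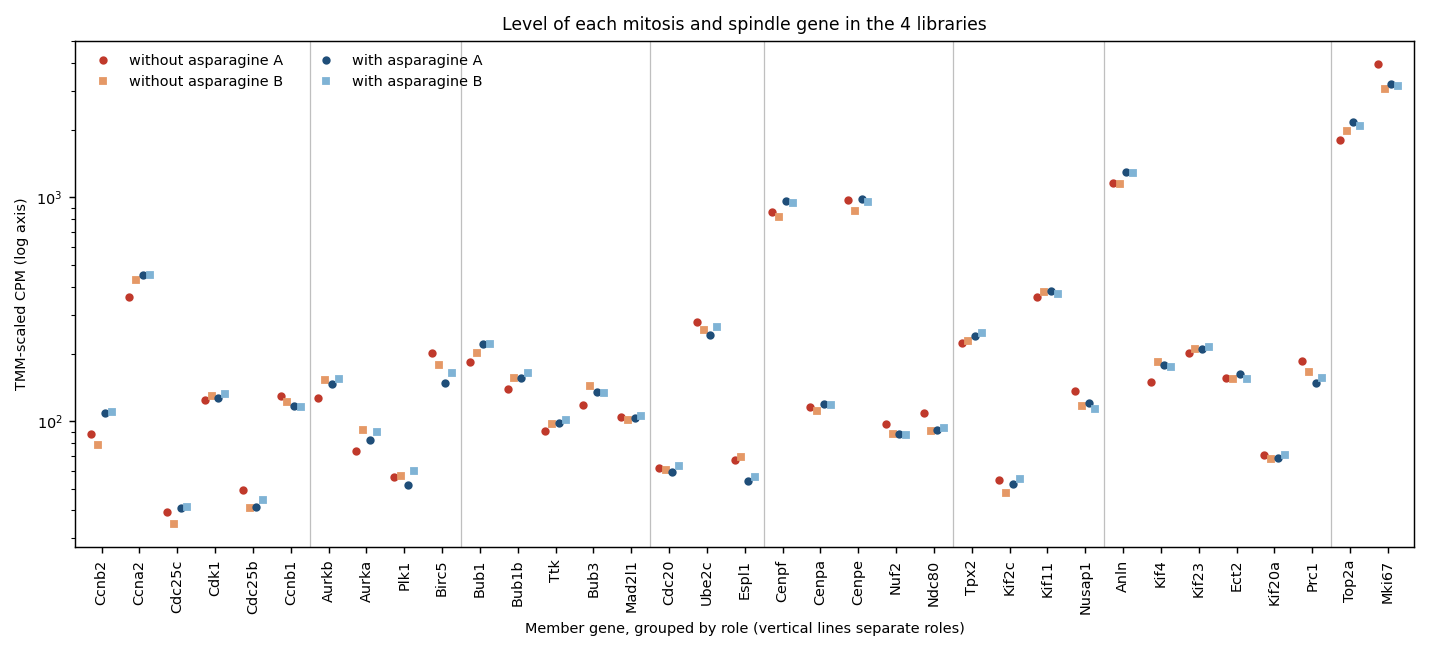
TMM-scaled CPM on a log axis for each of the 35 genes in each of the 4 libraries, in red and orange for libraries A and B without asparagine and in dark and light blue for libraries A and B with asparagine; genes are grouped by role. The 4 points of a gene lie close together relative to the range between genes, which runs from Cdc25c, the lowest, to Mki67, the highest, and library A without asparagine is the outlying point for Mki67, Kif4 and Ndc80.

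As a sum, the 35 genes held 1.32% and 1.2% of gene reads in libraries A and B without asparagine, against 1.28% and 1.26% in libraries A and B with asparagine. Counting error on a share, as a 95% Wilson interval, came to at most 0.0105 percentage points from end to end; other error is not covered. The libraries with asparagine lay between the libraries without it. That overlap rests on Mki67, which made up 30.6% of the summed CPM in library A without asparagine, 25.2% in library B without it, and 24.9% and 24.6% in the libraries with asparagine. The other 34 genes came to 8953 and 9050.4 CPM without asparagine, against 9652 and 9609 CPM with it. This sum was taken after the values were seen and is given with no test. Both libraries without asparagine lay below both with it, but abundant genes weigh most in the sum. Top2a averaged 1890 CPM without and 2127 CPM with asparagine, Anln 1153 and 1294 CPM, and Cenpf 836 and 952 CPM. The sum therefore does not describe each of the 34 genes. Gene by gene, 12 of the 35 fold changes were above 0 and 23 below. In 4 genes both libraries without asparagine lay above both libraries with it, or 11.4% of the 35 against 26.1% of all tested genes and 22.5% of those at least as abundant. In 11 genes they lay below both, or 31.4% against 26.4% of all tested genes and 32.3% of those at least as abundant. The groups overlapped in the other 20.

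Late cell cycle genes are known for shared promoter elements, so their promoters were searched. RefSeq promoter windows of build GRCm38.p6, from 250 bases before to 50 bases after a transcription start, were matched by symbol for 30 of the 35 genes, all but Ccna2, Cdc25c, Aurkb, Tpx2 and Kif20a. Each window was searched on both strands for the cell cycle genes homology region (CHR), the element read by the DREAM and MuvB complexes, spelled TTTGAA or TTCGAA, and for the CCAAT box of the factor NF-Y, spelled CCAAT. Each motif was counted on its own, and overlaps between the motifs were not removed. CHR letters were found for 24 genes (80%), against 21.7% of 27025 genes with a window and 16.3% of tested genes. CCAAT letters were found for 23 genes (76.7%), against 41.1% and 43.4%. Both occurred in 21 genes (70%), against 8.61% and 6.91%. The letters of CHR alone occurred in Ndc80, Kif2c and Anln (3 genes), those of the CCAAT box alone in Ccnb1 and Cenpe (2 genes), and neither in Birc5, Mad2l1, Nuf2 and Nusap1 (4 genes). A match of letters is a description and not a measured binding site.

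Stretches of 150 bases, from 130 before to 20 after the start, are shown for the 3 genes with the lowest p, Ccnb2, Espl1 and Birc5, and for Cdk1, Cdc20, Kif11 and Top2a, whose fold changes were smaller. They let the arrangement be compared between genes that did and did not differ at the unadjusted threshold. Capitals mark CHR or CCAAT letters on either strand, and each is written 5′ to 3′ in the direction of transcription.
Ccnb2: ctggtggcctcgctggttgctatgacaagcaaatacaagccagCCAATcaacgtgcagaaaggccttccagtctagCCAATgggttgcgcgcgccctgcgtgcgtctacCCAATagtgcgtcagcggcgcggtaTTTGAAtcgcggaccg
Espl1: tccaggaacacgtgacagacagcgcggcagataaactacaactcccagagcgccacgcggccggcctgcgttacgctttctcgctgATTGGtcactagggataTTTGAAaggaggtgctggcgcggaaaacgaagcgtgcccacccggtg
Birc5: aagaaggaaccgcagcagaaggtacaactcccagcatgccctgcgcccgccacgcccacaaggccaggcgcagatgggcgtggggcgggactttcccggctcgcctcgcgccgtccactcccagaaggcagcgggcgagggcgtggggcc
Cdk1: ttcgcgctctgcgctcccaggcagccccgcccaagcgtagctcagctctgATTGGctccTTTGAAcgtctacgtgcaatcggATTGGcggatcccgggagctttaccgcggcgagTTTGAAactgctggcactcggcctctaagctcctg
Cdc20: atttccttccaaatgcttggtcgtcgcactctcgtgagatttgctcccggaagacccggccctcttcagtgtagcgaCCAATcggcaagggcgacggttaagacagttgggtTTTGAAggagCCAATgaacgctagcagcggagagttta
Kif11: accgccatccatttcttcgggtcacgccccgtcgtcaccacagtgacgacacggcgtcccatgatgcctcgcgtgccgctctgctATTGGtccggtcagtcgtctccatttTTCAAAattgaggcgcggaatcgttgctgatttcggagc
Top2a: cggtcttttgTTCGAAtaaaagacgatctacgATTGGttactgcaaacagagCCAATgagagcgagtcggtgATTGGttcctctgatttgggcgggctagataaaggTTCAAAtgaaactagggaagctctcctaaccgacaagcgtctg

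The Ccnb2 stretch is chr9:70421535-70421684 on the minus strand. The Espl1 stretch is chr15:102296163-102296312 on the plus strand. The Birc5 stretch is chr11:117849107-117849256 on the plus strand. The Cdk1 stretch is chr10:69352893-69353042 on the minus strand. The Cdc20 stretch is chr4:118437324-118437473 on the minus strand. The Kif11 stretch is chr19:37376252-37376401 on the plus strand. The Top2a stretch is chr11:99024170-99024319 on the minus strand. Within the printed stretch, Ccnb2 had 3 CCAAT boxes, at 87, 54 and 21 bases before the start, and CHR letters beginning at base 5 of the transcript. A further CHR match of Ccnb2 lay outside the stretch, 167 bases before the start. In Espl1, CHR letters began 27 bases before the start and a CCAAT box on the other strand 44 bases before it. Cdk1 held 2 CHR matches within the printed stretch, 71 and 15 bases before the start, Cdc20 held 1 at 18 bases and Kif11 held 1 on the other strand at 19 bases. Top2a held several of both kinds, and the Birc5 stretch held neither. Espl1, which was at the upper end of the fold changes, and Cdk1, which was near 0, carried the same pair of letter motifs.

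**Figure D2:**
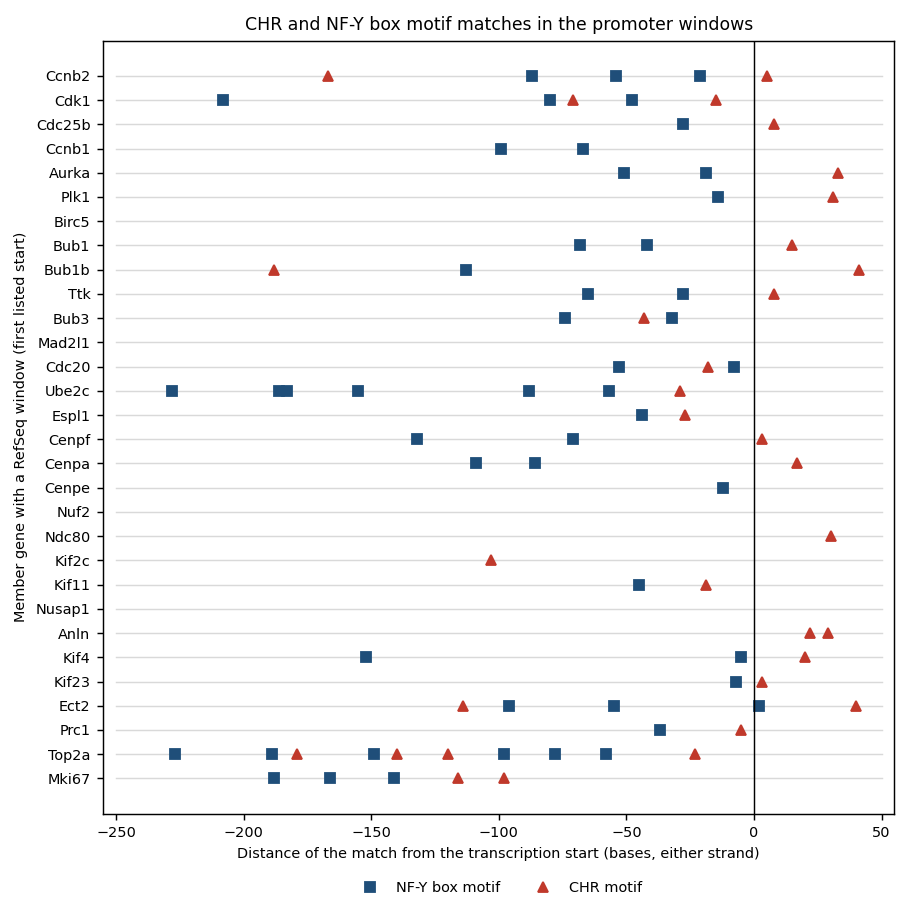
Position of CHR matches (triangles) and of CCAAT box matches (NF-Y box, squares) in the promoter windows of the 30 genes with a window, as distance in bases from the transcription start, with 1 row per gene and the first listed start drawn where there were several. The positions differ between genes, with CHR matches on both sides of the start; Birc5, Mad2l1, Nuf2 and Nusap1 have empty rows.

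Mitotic entry genes held both the lowest fold change of all 35 and values near 0. Cdk1, the kinase that drives entry, had 125 CPM (A) and 130 CPM (B) without asparagine, against 127 CPM (A) and 132 CPM (B) with it. The groups overlapped, and the log2 fold change was -0.03 ± 0.10 (SE), with a 95% interval of -0.26 to 0.21 (adjusted p = 0.908). Ccnb2, which encodes cyclin B2, an activating partner of CDK1, had 88.1 and 78.8 CPM without asparagine, against 109 and 110 CPM with it. Both libraries without asparagine lay below both with it, at a log2 fold change of -0.39 ± 0.11 and an interval of -0.64 to -0.13, but the gene did not pass the test (adjusted p = 0.143). Ccnb1, which encodes the main mitotic cyclin B1, went the other way by a smaller amount, with 129 and 122 CPM without, against 118 and 116 CPM with asparagine (log2 difference 0.10 ± 0.10, interval -0.13 to 0.34, adjusted p = 0.609). Per kilobase of transcript, the level of Ccnb2 relative to Ccnb1 was 1.11 and 1.05 without asparagine and 1.5 and 1.54 with it, 2 groups that did not overlap; this ratio was chosen after the values were seen and has no test.

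Ccna2, the cyclin A2 gene active from S phase into early mitosis, had 359 and 428 CPM without asparagine, against 449 and 450 CPM with it. Its low value came mostly from library A, and the log2 fold change was -0.19 (adjusted p = 0.424). The phosphatase genes Cdc25b and Cdc25c, which encode activators of CDK1, had log2 fold changes of 0.06 and -0.16. Cdc25c had 39.4 and 34.9 CPM without, against 41.1 and 41.6 CPM with asparagine, the lowest mean of the 35 in CPM, which is not corrected for length. Exons of Ccna2, Cdc25b and Cdc25c overlap those of a gene on the other strand, and since the use of strand in counting is not given in the sources used here, reads of that gene may be included. The same applies to Plk1, Cdc20, Ube2c, Nusap1, Kif4, Kif20a and Prc1, making 10 genes in all. Ccnb1, Ccnb2 and Kif4 also have an annotated processed pseudogene named after them, with which they may share reads. Pseudogenes not named after their parent gene were not searched for, so other members may have them too.

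Among the Polo and Aurora kinases the groups overlapped. Plk1, the Polo-like kinase of centrosome maturation, had 56.4 and 56.9 CPM without asparagine, against 51.8 and 60.2 CPM with it (log2 difference 0.02 ± 0.12, interval -0.26 to 0.29, adjusted p = 0.952). The kinase gene Aurka, whose product builds the spindle poles, had 74.0 and 91.2 CPM without, against 82.8 and 90.04 CPM with asparagine, so that the libraries without it were farther apart than the groups (log2 difference -0.07 ± 0.13, interval -0.37 to 0.24). Aurkb, the kinase of the chromosomal passenger complex, had 127 and 154 CPM without, against 147 and 154 CPM with asparagine (log2 difference -0.10 ± 0.12, interval -0.39 to 0.18). Birc5 encodes survivin, which brings that kinase to the centromere. It had 203 and 179 CPM without asparagine, against 148 and 165 CPM with it, a log2 fold change of 0.29 ± 0.12 with an interval of 0.01 to 0.56 (adjusted p = 0.257). Both libraries without asparagine were above both with it, library A more so.

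All 5 checkpoint genes had fold changes below 0, none of them past the test. Bub1, a kinase that gathers checkpoint proteins on kinetochores, had 183 and 202 CPM without asparagine, against 222 and 221 CPM with it, with both libraries below both of the other group (log2 difference -0.20 ± 0.10, interval -0.45 to 0.04, adjusted p = 0.352). Ttk, the kinase MPS1 that starts checkpoint signalling, had 90.4 and 97.0 CPM without, against 97.9 and 102 CPM with asparagine. Mad2l1 encodes MAD2, the protein that sequesters CDC20. It had 105 and 101 CPM without, against 103 and 106 CPM with asparagine, the smallest difference of the 5 (log2 difference -0.02 ± 0.10, interval -0.25 to 0.21, adjusted p = 0.928). Bub1b, which encodes the checkpoint protein BUBR1, and Bub3, its WD40 partner, had log2 fold changes of -0.11 and -0.04, and their groups overlapped. With upper quartile scaling the log2 fold changes of Mad2l1 and Bub3 were 0.0271 and 0.00738, and leaving out a library of the cells without asparagine gave 0.0965 for Bub3 (A left out) and 0.000780 for Mad2l1 (B left out). The shared direction of the 5 therefore depends on the scaling and on those libraries. Upper quartile scaling also raised the median log2 fold change of all tested genes, from 0.01 to 0.06.

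Of the 3 anaphase genes, Espl1 stood at the upper end of the whole list. Espl1 encodes separase, the protease that cuts cohesin, and had 67.0 and 69.1 CPM without asparagine, against 53.9 and 56.2 CPM with it. The 2 groups did not overlap, the libraries of each lay close together, and the log2 fold change was 0.31 ± 0.10 with an interval of 0.07 to 0.54 (adjusted p = 0.189). Cdc20, the activator of the anaphase-promoting complex, had 62.0 and 60.6 CPM without, against 59.4 and 63.0 CPM with asparagine, a log2 fold change of 0.00 ± 0.10 (interval -0.24 to 0.24, adjusted p = 0.998). Ube2c encodes the ubiquitin-conjugating enzyme of that complex and had 279 and 255 CPM without, against 244 and 264 CPM with asparagine (log2 difference 0.07). Separase is held inactive by securin, the product of Pttg1, and the per-kilobase ratio of Espl1 to Pttg1 was 0.123 and 0.171 without and 0.168 and 0.147 with asparagine, so the ratio overlapped between groups.

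Of the 5 centromere and kinetochore genes, none passed the test. Cenpf, a large protein of the outer kinetochore, had 858 and 815 CPM without asparagine, against 960 and 943 CPM with it, both libraries lower (log2 difference -0.19 ± 0.10, interval -0.43 to 0.06, adjusted p = 0.382). The kinesin gene Cenpe, which serves chromosome alignment, had 977 and 868 CPM without, against 981 and 954 CPM with asparagine (log2 difference -0.07). Cenpa, the histone variant of the centromere, had 116 and 111 CPM without, against 120 and 119 CPM with asparagine (log2 difference -0.07). Ndc80 and Nuf2 encode the 2 partners that bind microtubules. Ndc80 had 109 and 90.9 CPM without, against 91.7 and 93.3 CPM with asparagine, library A alone being high (log2 difference 0.11 ± 0.12, interval -0.17 to 0.40, adjusted p = 0.646). Nuf2 followed the same pattern, with 97.0 and 87.4 CPM without, against 87.5 and 86.5 CPM with asparagine. The per-kilobase ratio of Nuf2 to Ndc80 was 0.812 and 0.880 without and 0.873 and 0.849 with asparagine.

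Spindle assembly genes differed by less than 0.13 on the log2 scale. Kif11, the kinesin Eg5 that pushes the spindle poles apart, had 358 and 378 CPM without asparagine, against 383 and 369 CPM with it (log2 difference -0.03 ± 0.10, interval -0.27 to 0.21, adjusted p = 0.894). Tpx2, an activator of Aurora A on the spindle, had 224 and 230 CPM without, against 241 and 248 CPM with asparagine, with no overlap (log2 difference -0.11 ± 0.10, interval -0.34 to 0.12). Nusap1, a protein that bundles spindle microtubules, had 137 and 117 CPM without, against 121 and 113 CPM with asparagine, where the groups overlapped (log2 difference 0.12 ± 0.12, interval -0.16 to 0.40). Kif2c encodes the microtubule-depolymerising kinesin MCAK and had a log2 fold change of -0.07.

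Genes of the central spindle and cytokinesis had log2 fold changes between -0.17 and 0.21. Anln encodes anillin, the scaffold of the contractile ring, and had 1161 and 1145 CPM without asparagine, against 1299 and 1289 CPM with it. The libraries of each group were near each other and the groups did not overlap, yet the gene did not pass the test (log2 difference -0.17 ± 0.10, interval -0.41 to 0.08, adjusted p = 0.422). Prc1, which cross-links the microtubules of the central spindle, had 186 and 166 CPM without, against 149 and 157 CPM with asparagine, also without overlap (log2 difference 0.21 ± 0.11, interval -0.05 to 0.46, adjusted p = 0.363). The kinesin genes Kif4, Kif20a and Kif23, which work at the midzone, had log2 fold changes of -0.08, -0.00 and -0.05, and Ect2, the activator of RhoA at the division plane, had -0.03; none of the 6 passed the test.

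Top2a and Mki67 were the most abundant of the 35 per kilobase of transcript. Top2a encodes topoisomerase II alpha, which untangles sister chromatids, and had 1803 and 1977 CPM without asparagine, against 2162 and 2092 CPM with it. Both libraries were lower, by a log2 fold change of -0.17 ± 0.11 (interval -0.43 to 0.09, adjusted p = 0.447). Mki67 encodes Ki-67, the coat protein of mitotic chromosomes used to mark dividing cells. It had 3955 and 3043 CPM without, against 3203 and 3142 CPM with asparagine, a log2 fold change of 0.14 ± 0.15 (interval -0.21 to 0.49, adjusted p = 0.640). Library A alone was high and library B was below both libraries with asparagine, so the direction for Ki-67 differed between the libraries of the same group.

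**Figure D3:**
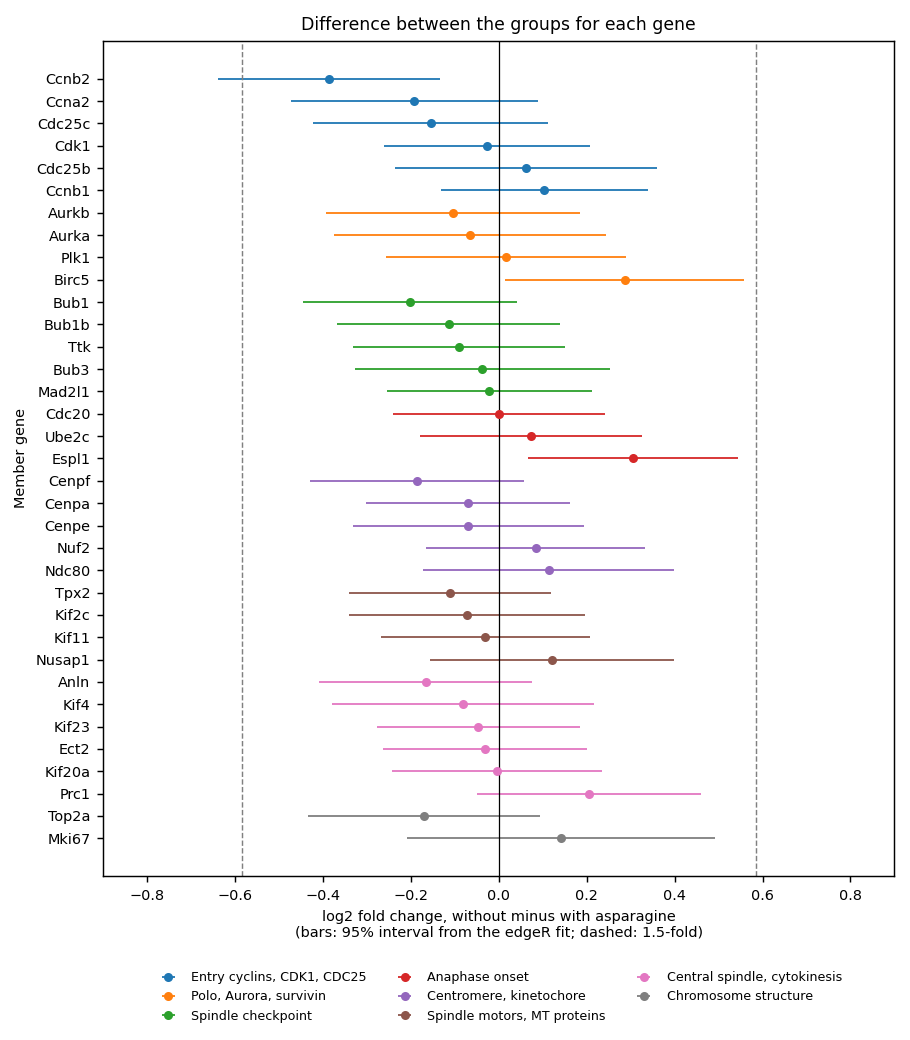
Log2 fold change without minus with asparagine for each of the 35 genes, coloured and grouped by role, with bars for the 95% interval from the edgeR fit and dashed lines at 1.5-fold. The intervals of Ccnb2, Birc5 and Espl1 do not cross 0, and the Ccnb2 interval is the 1 that crosses a dashed line.

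Levels between genes were compared per kilobase of transcript, using the longest principal coding transcript in GENCODE M21, since the annotation used for counting is not given in the sources used here. All 35 genes were above the median level of tested genes on this RPKM scale, and 15 were above the 90th percentile. Top2a was highest, at a mean of 362 RPKM without and 407 RPKM with asparagine, then Mki67 at 348 and 315 RPKM. Ube2c averaged 276 RPKM without and 263 RPKM with asparagine. Espl1 was lowest, at 10.2 RPKM without and 8.27 RPKM with asparagine. Mad2l1 followed at 13.6 and 13.8 RPKM, computed with an annotated transcript of 7557 bases.

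The libraries without asparagine differed from each other gene by gene. Relative to the mean of the libraries with asparagine, library A lay a median of 0.16 away on the log2 scale across the 35 genes and library B 0.06, and library A was the farther in 23 genes. The 2 libraries were on opposite sides of that mean in 14 genes, both below it in 13 and both above it in 8. Neither these distances nor these counts were computed over all tested genes, so they show nothing particular to the 35. Without library A, 5 genes were called, or 14.3%, beside 15.6% of all tested genes: Espl1 was higher and Ccnb2, Cenpe, Cenpf and Anln lower. Without library B, 17 genes were called, or 48.6%, beside 40.4% of all tested genes. The 6 called higher were Birc5, Espl1, Prc1, Ndc80, Nusap1 and Mki67, and the 11 called lower were Ccnb2, Ccna2, Aurka, Aurkb, Bub1, Bub1b, Bub3, Cenpf, Kif4, Anln and Top2a. Without library A or B with asparagine, edgeR called 0 of the 35, beside 0.438% and 0.363% of all tested genes. None of the 35 passed the unadjusted threshold in these fits, beside 6.31% and 6.66% of all tested genes. The calls of Espl1, higher, and of Ccnb2, Cenpf and Anln, lower, were shared by both fits that left out a library without asparagine. Both fits used the same 2 libraries with asparagine. The share of all tested genes called in both was not computed, so these shared calls have no background beside them. In those fits a single library stood for the cells without asparagine and was assumed to vary like those with it. Ccnb2 had log2 fold changes of -0.47 without library A and -0.31 without library B, Espl1 had 0.32 and 0.28, Cenpf had -0.23 and -0.15, and Anln had -0.18 and -0.16. Mki67 had -0.06 without library A and 0.31 without library B, so its direction rests on library A. The larger shares of Rn45s reads and of reads outside annotated features in library A moved with these values. The part of these shares in the values was not tested.

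**Figure D4:**
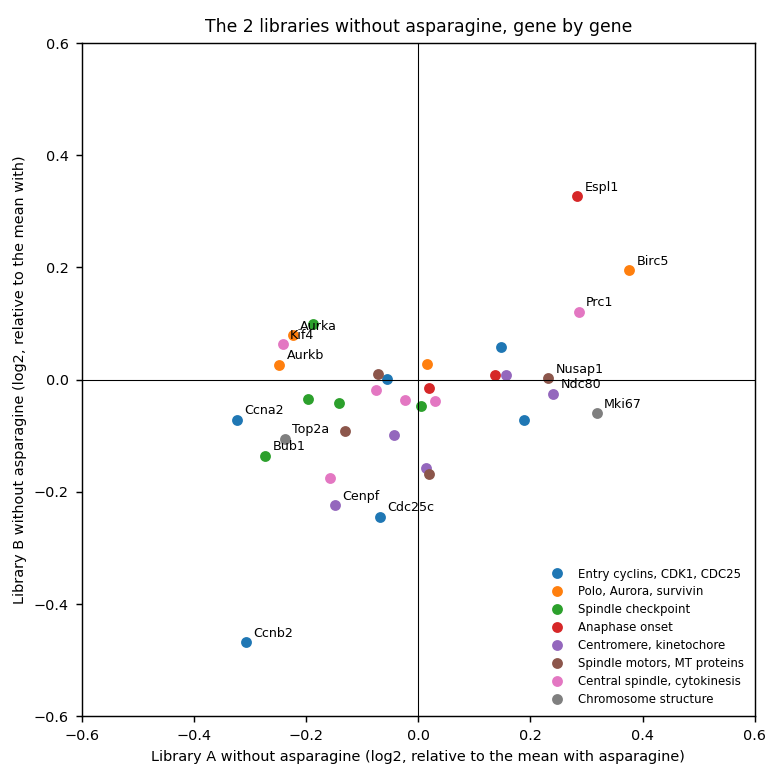
Each point is 1 of the 35 genes, coloured by role; the x axis gives library A and the y axis library B without asparagine, each as log2 level relative to the mean of the libraries with asparagine. Ccnb2 at the lower left and Espl1 at the upper right are displaced in both libraries, whereas Mki67, Ndc80, Aurkb and Kif4 are displaced in library A and lie near 0 in library B.

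Related genes outside the 35 were read against the same kind of shares. Of all tested genes, edgeR called 1.85% and limma-voom 1.83%, and 18.1% passed the unadjusted edgeR threshold. DESeq2 called 3.76% of the genes to which it gave an adjusted p. Of 71 other mitotic genes, all tested, 0 were called by the 3 tools. At the unadjusted threshold 4 passed, or 5.63%, 1 higher and 3 lower, and the median log2 fold change was 0.02. Dlgap5, a spindle protein gene, had the smallest p of these, with 95.1 and 111 CPM without, against 128 and 124 CPM with asparagine (log2 difference -0.29 ± 0.11, adjusted p = 0.247). The 16 subunits and regulators of the anaphase-promoting complex had a median of 0.01, with 0 called by any of the 3 tools and 0 at the unadjusted threshold. Cdc26, one of its small subunits, had 14.1 and 19.6 CPM without, against 21.4 and 21.7 CPM with asparagine (log2 difference -0.35, adjusted p = 0.336). Condensin and cohesin genes, whose products compact and hold together the chromosomes, had the lowest median of the 5 lists at -0.13, with 12 of 17 below 0. None of the 17 was called by the 3 tools. At the unadjusted threshold 4 passed, all lower, or 23.5%, near the 18.1% of all tested genes and the 19% of those at least as abundant as the least abundant of the 35. Smc4, a condensin core subunit, had 1026 and 1096 CPM without, against 1370 and 1274 CPM with asparagine (log2 difference -0.32 ± 0.11, adjusted p = 0.201).

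Among 23 transcriptional regulators of mitotic genes, 1 was called, Tfdp2, beside 1.85% of all tested genes. At the unadjusted threshold 3 of the 23 passed, all lower, or 13%, against 18.1% of all tested genes. Tfdp2, which encodes a dimerisation partner of E2F factors, fell to 37.2 and 35.6 CPM without asparagine, against 56.9 and 56.7 CPM with it, a log2 fold change of -0.64 ± 0.10 (adjusted p = 0.0361). DESeq2 and limma-voom called the same gene, but the call was lost with upper quartile scaling (adjusted p = 0.0516) and without library A or B with asparagine (adjusted p = 0.457 and 0.453), where the log2 fold change was -0.64 and -0.65; over all alternatives the adjusted p ranged between 1.09e-09 and 0.457. The list had a median of 0.00. S phase genes, 20 in number, had a median of 0.01, with 0 called by any of the 3 tools. At the unadjusted threshold 1 passed, or 5%. That gene, Gins2 of the replicative helicase, had 30.6 and 52.1 CPM without, against 61.4 and 62.1 CPM with asparagine (log2 difference -0.57 ± 0.22, adjusted p = 0.247). Gins2 was called with the letter as a replicate block (adjusted p = 0.0176) and with no low-count filter (adjusted p = 0.00113). Among the cells without asparagine, leaving out A gave a log2 difference of -0.25 (adjusted p = 0.0502) and leaving out B gave -1.01 (adjusted p = 1.91e-20); over all alternatives its adjusted p ranged up to 0.790.

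**Figure D5:**
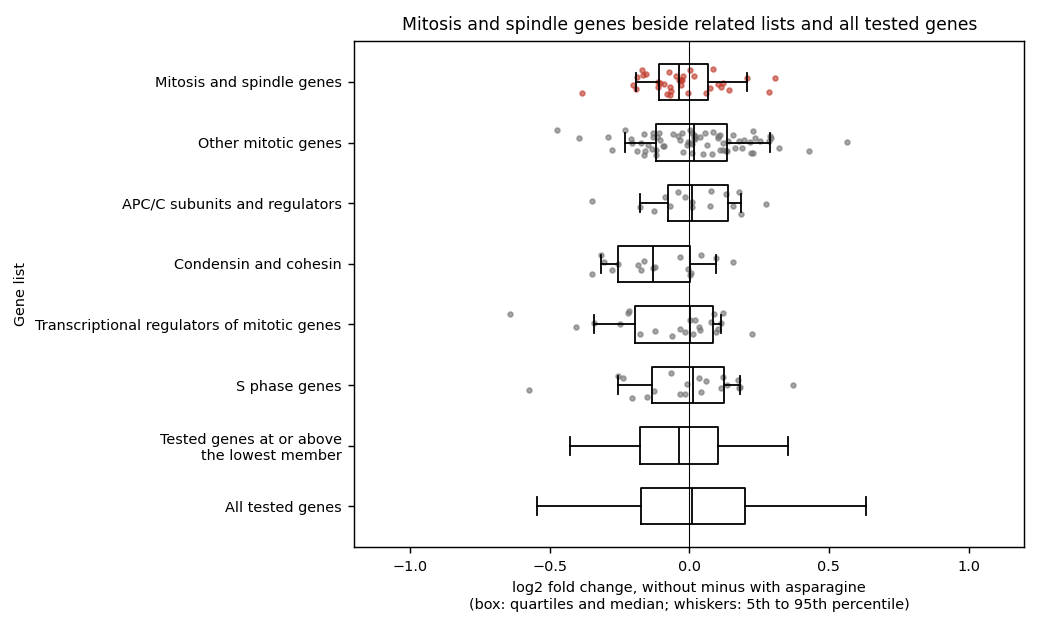
Log2 fold changes without minus with asparagine for the 35 mitosis and spindle genes (red), 5 related lists (grey) and, as boxes only, the tested genes at least as abundant as the lowest of the 35 and all tested genes; boxes show the quartiles and median and whiskers the 5th to 95th percentile. The medians lie between -0.13 for condensin and cohesin genes and 0.02 for the other mitotic genes, with Tfdp2 as the point farthest to the left among the regulators.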

How the data were processed

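RNA was purified with a Qiagen kit and amplified with the NuGEN Ovation V2 system, per the labels' protocols. The authors deposited read counts as whole numbers, 1 row per gene symbol, made with Bowtie2 and HTSeq on mm10, per the submitters' processing notes; the sources used here give no version, setting, annotation or strand. The 5 HTSeq summary rows, 60.1% to 70.0% of reads per library, were left out of library sizes and tests. Bowtie2 does not split reads across introns, so reads over exon junctions may be missed. The set of tested genes at least as abundant as the lowest member was chosen after the data were seen.

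Genes were kept by filterByExpr (minimum count 10, minimum total 15), scaled by TMM and tested with edgeR 4.0.16 (glmQLFit and glmQLFTest, R 4.3.3) on group alone, with Benjamini-Hochberg adjustment over all tested genes. Fold changes are without minus with asparagine; SE is the size of the log2 fold change divided by the square root of F, and intervals use the test's degrees of freedom. Log2 CPM values relative to the mean with asparagine used a prior count of 2. RPKM used transcript lengths of GENCODE M21, and promoter sequences came from RefSeq (GRCm38.p6). Alternatives were DESeq2 1.42.0, limma-voom (limma 3.58.1), other scalings, other filters, a replicate block and each library left out. The pipeline was tested on simulated data. Library values are given for the genes named by a written rule, for the extremes of each role and for further members; every other member is given by its fold change. From each related list the called genes, or the gene with the smallest p, were named. The members and lists were chosen with earlier results of these data known.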

Additional observations from a re-analysis of the deposited data

How the results depend on the processing

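The count of 0 called mitosis and spindle genes held with limma-voom, upper quartile scaling, DESeq2 size factors and the DESeq2 Wald test. It also held with the filter of 5 CPM in 2 libraries and with the replicate block. The fits without a library with asparagine took their spread only from the libraries without it, which differed more. Their lack of calls is therefore no further check. With no low-count filter 1 gene was called lower, Ccnb2 (adjusted p = 0.0493; 6.74e-07 to 0.872 over all alternatives). Leaving out a library gave between 0 and 6 higher and between 0 and 11 lower, the calls coming from the fits without a library of the cells without asparagine. The median log2 fold change of the 35 genes lay between -0.0573 and 0.00738 under the alternatives. It changed sign with upper quartile scaling, where the median of all tested genes was 0.0564. Each move of the median of the 35 was under 0.0782, the pooled standard deviation between libraries of a group of the genes' median log2 CPM. That yardstick measures levels and not fold changes, so it does not show the median to be stable. Over all tested genes, 99 were called higher and 138 lower. The DESeq2 Wald test gave 193 and 271, no filter 615 and 719, and the letter as a replicate block 344 and 472. The deviations of libraries A and B correlated at 0.123 between the groups across tested genes, and the labels do not say that the letters pair libraries. The block changed the call of 1 named gene, Gins2 (log2 fold change -0.62, adjusted p = 0.0176). Leaving out a library gave between 24 and 2502 higher and between 24 and 2861 lower; the cause of this range was not tested.

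Across 25 named genes and 11 alternatives, 13 of 275 fold changes reversed in sign, 0 of them called. Upper quartile scaling gave 0.0207 for Cdk1, 0.0271 for Mad2l1 and 0.0164 for Kif11, and no filter gave -0.00560 for Cdc20. With a library left out, the lowest and highest log2 fold changes were -0.0889 and 0.127 for Plk1, -0.229 and 0.0745 for Aurka, -0.252 and 0.0242 for Aurkb, -0.0497 and 0.000780 for Mad2l1, -0.0431 and 0.0412 for Cdc20, -0.0275 and 0.238 for Ndc80, -0.0749 and 0.00747 for Kif11 and -0.0621 and 0.315 for Mki67. Each of the 35 genes had 723 or more reads in every library, and each group had 2 libraries, which limits the precision of the spread.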

Other observations

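The promoter letters were also counted in the related lists. Among 53 of the 71 other mitotic genes with a RefSeq window, CHR letters were found in 58.5%, CCAAT letters in 69.8% and both in 45.3%. Condensin and cohesin genes had both in 33.3% of 12 windows, transcriptional regulators in 33.3% of 18, and S phase genes in 26.7% of 15. The subunits and regulators of the anaphase-promoting complex had both in 6.67% of 15, against 8.61% of all genes with a window.

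Partner genes were compared within libraries on the RPKM scale, with no test. The ratio of Aurkb to Birc5, both of the chromosomal passenger complex, was 0.305 and 0.418 without asparagine and 0.484 and 0.455 with it. Cdc25c relative to Cdc25b was 1.27 and 1.35 without and 1.57 and 1.48 with asparagine. Bub1b relative to Bub3 was 0.717 and 0.658 without and 0.700 and 0.744 with asparagine, and Tpx2 relative to Aurka was 1.32 and 1.10 without and 1.27 and 1.2 with asparagine. The groups did not overlap in the ratios of Aurkb to Birc5 and of Cdc25c to Cdc25b, and overlapped in those of Bub1b to Bub3 and of Tpx2 to Aurka. Such separation was frequent with 2 libraries per group. Among single tested genes, 26.1% had both libraries without asparagine above both with it, and 26.4% had both below. No such share was computed for ratios.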
